A study of Homo sapiens with 4 samples.

Results

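A group of 10 transcripts typical of myeloid cells and other leukocytes was followed in KYSE410, a human cell line long grown from a squamous carcinoma of the oesophagus. They are PTPRC, FCGR3A, FCGR3B, FCGR2A, CYBB, FCN1, TYROBP, LYZ, ALOX5AP and CSF1R. They were chosen by symbol, with their values on these arrays already known, so their levels and differences are given as a description and no test was made. Each of the 10 genes had 1 probe set of 3 probes, found through its RefSeq transcript, among 18863 probe sets that stood for 17182 named genes. The cells had received the cytokines TNFα (tumour necrosis factor) or IL1β (interleukin 1β), lipopolysaccharide (LPS, from the outer membrane of Gram-negative bacteria) or phosphate-buffered saline (PBS, the solvent) for 24 h, all in the same serum-supplemented medium, and the study screened for transcripts that react to inflammation. Each condition was measured on 1 single-colour NimbleGen array, so no value below has a replicate error, and precision is limited by having so few arrays. The labels name a single cell line and state no dose.

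As background, these transcripts belong to the equipment of phagocytes. Fcγ receptors bind the constant part of immunoglobulin G on coated particles and signal through tyrosine motifs (ITAMs), either their own or those of adaptors, and the phosphatase CD45 sets the threshold of the kinases that act on such motifs. Engulfed microbes are met by superoxide from the phagocyte oxidase and by lysozyme, and arachidonic acid is passed on to leukotriene synthesis. Most of these genes are read in myeloid cells under the transcription factor PU.1, encoded by SPI1, and carcinoma cells of squamous epithelium are not a usual source of them, apart from lysozyme, which several glandular epithelia secrete.

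Intensities are the authors' RMA values on a linear scale, and differences are on the log2 scale. A set of 5000 random-sequence probes served as background and read between 54.1 and 56.4 on the 4 arrays, and a value below 2 times that control on the same array is called near background. A gene is described as higher or lower where the ratio between a pair of arrays was 2 or more and the larger intensity was at or above the floor, the median level of all named genes (8.02 on the log2 scale, an intensity of 260). Folds whose smaller intensity was near background use the background limit in its place and are lower bounds, written as at least. The labelled cell type was borne out by its markers: none of 20 squamous epithelial genes was near background on any array, and the basal keratin KRT5 read 58314 with TNFα, 48523 with IL1β, 59820 with LPS and 49361 with PBS. The LPS array stood apart from the other arrays, with 854 genes higher and 718 lower than with PBS, against 317 and 320 for TNFα and 295 and 337 for IL1β. In a bulk sample, fewer cells of a type and less RNA per cell cannot be told apart.

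Sequences upstream of the start sites are shown for a pair of receptors that are hard to tell apart and for those members that share a short motif. FCGR3A and FCGR3B lie near each other on chromosome 1 and are close copies, so probes for either can pick up the other. Over the 120 bases before matching start sites (RefSeq, GRCh38.p14, minus strand, chr1:161549819-161549938 for FCGR3A and chr1:161631177-161631296 for FCGR3B) 110 bases were identical, or 91.7%, and the 10 that differed are in capitals.
FCGR3A: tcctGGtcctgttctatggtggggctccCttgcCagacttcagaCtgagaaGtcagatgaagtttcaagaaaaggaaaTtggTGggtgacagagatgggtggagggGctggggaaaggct
FCGR3B: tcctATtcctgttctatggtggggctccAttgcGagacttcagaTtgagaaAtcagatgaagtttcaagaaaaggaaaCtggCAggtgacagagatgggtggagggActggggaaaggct
The identity of 91.7% is that of DNA upstream of the start sites, and transcript sequences were not compared. The probe sequences were not used here, so values of these 2 receptors are uncertain as to which gene they measure.

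The 250 bases before each RefSeq start site were searched on both strands for GAGGAA, a core that PU.1 and other ETS factors bind. Of the 9 member genes with an entry, 6 held it in at least 1 window (FCGR2A, CYBB, FCN1, TYROBP, ALOX5AP and CSF1R), against 27.3% of 27303 genes. No window of PTPRC, FCGR3A or FCGR3B held it. LYZ had no entry. By window the figures were 6 of 16 and 23.6%. The windows of CSF1R, highest with IL1β, of TYROBP and ALOX5AP, which had like profiles, and of CYBB, bright with the cytokines only, are shown, with the core or its reverse complement in capitals. They lie at chr5:150086555-150086804 (CSF1R, minus strand), chr19:35908296-35908545 (TYROBP, minus strand), chr13:30713235-30713484 (ALOX5AP, plus strand) and chrX:37779809-37780058 (CYBB, plus strand).
CSF1R: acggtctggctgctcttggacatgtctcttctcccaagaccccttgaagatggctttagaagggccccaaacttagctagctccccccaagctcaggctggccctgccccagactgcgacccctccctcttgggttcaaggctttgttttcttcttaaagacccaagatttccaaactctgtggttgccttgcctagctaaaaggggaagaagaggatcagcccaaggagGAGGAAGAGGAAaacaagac
TYROBP: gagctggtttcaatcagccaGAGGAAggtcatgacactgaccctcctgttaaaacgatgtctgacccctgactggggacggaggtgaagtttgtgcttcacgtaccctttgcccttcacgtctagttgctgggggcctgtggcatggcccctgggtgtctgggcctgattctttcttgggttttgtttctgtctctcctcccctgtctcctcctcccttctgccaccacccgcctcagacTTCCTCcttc
ALOX5AP: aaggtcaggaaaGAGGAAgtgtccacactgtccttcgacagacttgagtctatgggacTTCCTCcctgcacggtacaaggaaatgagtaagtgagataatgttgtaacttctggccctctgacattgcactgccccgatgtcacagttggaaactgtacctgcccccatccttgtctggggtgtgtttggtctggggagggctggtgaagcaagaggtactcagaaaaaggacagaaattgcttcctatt
CYBB: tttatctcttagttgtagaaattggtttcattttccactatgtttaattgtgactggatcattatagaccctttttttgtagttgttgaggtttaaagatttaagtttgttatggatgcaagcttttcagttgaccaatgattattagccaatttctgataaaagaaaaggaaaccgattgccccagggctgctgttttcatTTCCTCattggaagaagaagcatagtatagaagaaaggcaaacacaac
In CSF1R the core occurred in tandem, beginning 20 and 14 bases before the start. Over the windows of all 9 genes TGANTCA, the letters of an AP-1 site, was found in 1 gene (CSF1R, in a farther window not shown) and in 8.06% of all genes. TTGCNNAA (C/EBP) and an NF-κB consensus were found in none of the 9, against 11.0% and 25.8% of all genes. Such a match is a description of the letters only, and a missing match says only that these letters are not in the window. SPI1 itself read 72.2 with TNFα, 117.6 with IL1β, 161 with LPS and 123.6 with PBS, never more than 3 times the random control and below the floor on all 4 arrays. Any part of PU.1 in the members' values was not tested.

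Most members followed 1 of 2 patterns over the arrays. PTPRC, FCGR3A, FCGR3B, CYBB and FCN1 were below the floor with PBS and above it with both cytokines, and FCGR2A was above it with TNFα alone, while TYROBP, LYZ and ALOX5AP were bright with PBS and with both cytokines and dim with LPS. CSF1R was highest with IL1β. None of the 10 was near background with TNFα or IL1β, whereas 8 were with LPS and 4 with PBS, and over all named genes the share near background was alike on the 4 arrays, between 28.0% and 29.3%. The floor was reached by 9 members with TNFα, 9 with IL1β, 1 with LPS and 3 with PBS. Of all named genes 50.3% to 50.8% reached it on each array. The intensities of the 10 probe sets summed to 16183 with TNFα, 17375 with IL1β, 1212 with LPS and 9770 with PBS, of which LYZ alone gave 5600, 10390, 209 and 6917 in the same order.

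**Figure D1:**
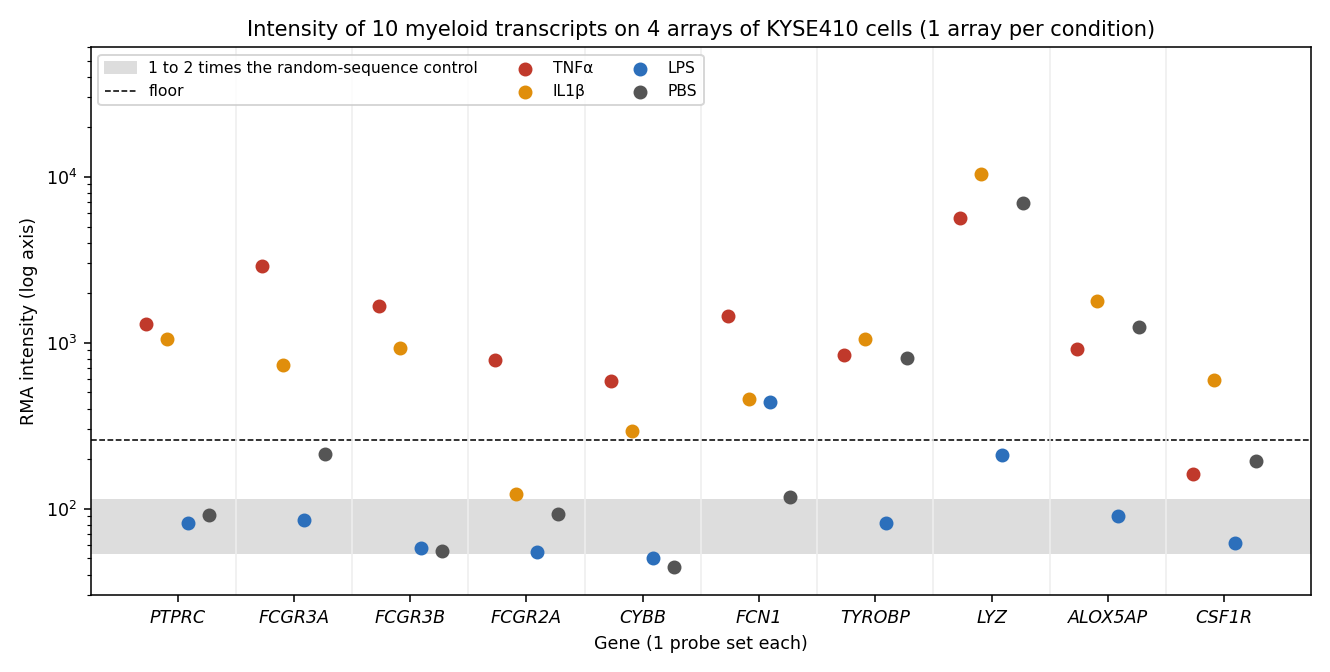
RMA intensity (log axis) of the 10 myeloid transcripts, 1 point per array, in the order TNFα, IL1β, LPS and PBS within each gene. The grey band runs from 1 to 2 times the random-sequence control and the dashed line is the floor of 260. For 8 genes the LPS point lies within or below the band, and the PBS points of LYZ, ALOX5AP and TYROBP lie above the floor.

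Among the surface proteins, PTPRC encodes CD45, the tyrosine phosphatase found on all nucleated blood cells. It read 1295 with TNFα, 1046 with IL1β, 81.5 with LPS and 91.5 with PBS. The cytokine arrays were alike and the LPS and PBS arrays were both near background, so PTPRC exceeded its PBS level at least 11.97-fold with TNFα and at least 9.67-fold with IL1β. No fold can be given between LPS and PBS.

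FCGR3A encodes CD16A, the Fcγ receptor of natural killer cells and macrophages, which needs an adaptor to signal. Its intensity was 2906 with TNFα, 730 with IL1β, 84.8 with LPS and 212 with PBS. It was 13.7-fold higher with TNFα and 3.44-fold higher with IL1β than with PBS, and 3.98-fold higher with TNFα than with IL1β. FCGR3B encodes CD16B, which neutrophils carry on a lipid anchor. It read 1649 with TNFα, 925 with IL1β, 57.9 with LPS and 55.2 with PBS, which on the last 2 arrays is the level of the random control itself. FCGR3B exceeded its PBS level at least 15.2-fold with TNFα and at least 8.55-fold with IL1β, and its log2 differences, 4.90 and 4.07, ranked second from the top among 17182 genes each time.

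The 2 CD16 probe sets differed in how far the cytokines were apart. The TNFα minus IL1β difference was 1.99 for FCGR3A and 0.83 for FCGR3B, so FCGR3B did not reach 2-fold. How much signal the 2 sets share was not tested.

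FCGR2A encodes CD32A, an Fcγ receptor with a signalling motif of its own. Its intensity was 790 with TNFα, 123 with IL1β, 54.5 with LPS and 93.0 with PBS. Only the TNFα array was above the floor, and the IL1β value was 2.19 times the random control. FCGR2A was at least 7.30-fold higher with TNFα than with PBS and 6.43-fold higher with TNFα than with IL1β, the fourth largest difference in that direction among 17182 genes.

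CYBB encodes the catalytic subunit of the phagocyte oxidase, gp91phox. It read 588 with TNFα, 294 with IL1β, 50.1 with LPS and 44.3 with PBS. The last 2 values were below the random control, and CYBB exceeded its PBS level at least 5.43-fold with TNFα and at least 2.72-fold with IL1β. TNFα was 1.996-fold above IL1β, just short of the 2-fold rule. FCN1 encodes M-ficolin, a monocyte lectin that recognises sugars on microbes and starts complement. Its intensity was 1439 with TNFα, 455 with IL1β, 440 with LPS and 118 with PBS. FCN1 was the only member higher with all 3 stimuli than with PBS, by 12.2-fold with TNFα, 3.87-fold with IL1β and 3.73-fold with LPS. IL1β and LPS differed by -0.05 (LPS minus IL1β), so on this gene the LPS array was not the dim one.

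TYROBP encodes DAP12, an ITAM adaptor that passes on signals from receptors of natural killer and myeloid cells. It read 838 with TNFα, 1048 with IL1β, 82.3 with LPS and 801 with PBS. The first 2 and the PBS array lay within a factor of 1.31 of each other (IL1β over PBS), and TYROBP was at least 7.10-fold lower with LPS than with PBS. LYZ encodes lysozyme, which cleaves the bacterial cell wall. Its intensity was 5600 with TNFα, 10390 with IL1β, 209 with LPS and 6917 with PBS. LYZ was 33.1-fold lower with LPS than with PBS and 49.6-fold lower with LPS than with IL1β, but at 3.71 times the random control it was still above the background limit with LPS.

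ALOX5AP encodes FLAP, the membrane protein that presents arachidonic acid to 5-lipoxygenase. It read 917 with TNFα, 1767 with IL1β, 90.2 with LPS and 1244 with PBS, and was at least 11.0-fold lower with LPS than with PBS. LYZ and ALOX5AP had the same order of arrays, IL1β above PBS above TNFα above LPS, and their TNFα minus IL1β differences were alike at -0.89 and -0.95. Neither reached 2-fold there. CSF1R encodes the receptor for colony-stimulating factor 1, on which macrophages depend. Its intensity was 162 with TNFα, 597 with IL1β, 61.7 with LPS and 194 with PBS. Only the IL1β array reached the floor, and CSF1R was 3.08-fold higher with IL1β than with PBS, while TNFα was 3.68-fold below IL1β. Its TNFα and PBS values differed by -0.26 (TNFα minus PBS), well under 2-fold.

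**Figure D2:**
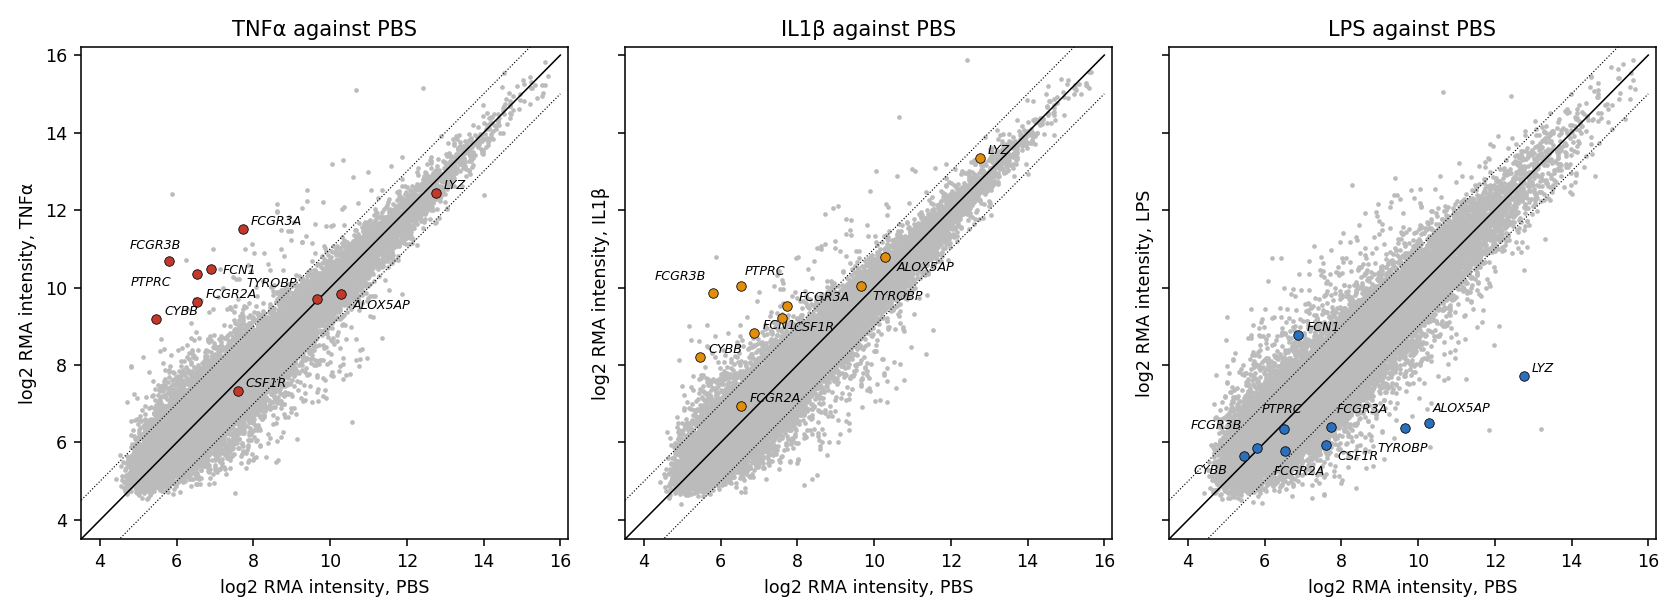
Log2 RMA intensity of 17182 named genes (grey) and the 10 myeloid transcripts (coloured and named) with TNFα, IL1β and LPS on the y axes against PBS on the x axes. Solid lines mark equal values and dotted lines 2-fold differences. In all, 6 members lie above the upper dotted line with TNFα, 6 with IL1β and 1 with LPS, where LYZ, ALOX5AP and TYROBP lie far below the lower one.

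The counts over the 10 members follow. These comparisons share arrays, the first 3 the PBS array, so they are given side by side only. With TNFα against PBS 6 members were higher and 0 lower, where the same rule was met by 1.84% of all named genes for higher and 1.86% for lower. The member median was 3.35 and that of all genes -0.03. With IL1β against PBS 6 were higher and 0 lower, with 1.72% and 1.96% of all genes, at a member median of 1.70 and -0.03 over all genes. Both cytokines shared PTPRC, FCGR3A, FCGR3B, CYBB and FCN1, with FCGR2A as the sixth with TNFα and CSF1R with IL1β. With LPS against PBS 1 member was higher (FCN1) and 3 lower, with 4.97% and 4.18% of all genes, at a member median of -1.05 and 0.02 over all genes. FCGR3A and CSF1R were also dimmer with LPS than with PBS (log2 differences of -1.32 and -1.65), but on both arrays they lay below the floor. Since the members were picked for such differences, nothing is read from these shares.

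The stimuli were also set against each other without PBS. With TNFα against IL1β 3 members were higher (FCGR3A, FCGR2A and FCN1) and 1 lower (CSF1R), with 1.01% and 0.937% of all genes. With LPS against TNFα 0 were higher and 9 lower, with 5.58% and 3.99% of all genes, and the tenth, CSF1R, differed by -1.39 below the floor. With LPS against IL1β 0 were higher and 8 lower, with 5.96% and 4.21% of all genes, FCGR2A (-1.17, below the floor) and FCN1 being the exceptions. The lower members included PTPRC, at 81.5 with LPS, 1295 with TNFα and 1046 with IL1β.

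Patterns over all 4 arrays were counted in the same way. PTPRC, FCGR3A, FCGR3B and CYBB had both cytokine arrays at the floor and at least 2-fold above both LPS and PBS, a pattern of 35 named genes (0.204%). PTPRC, FCGR3B and CYBB were moreover near background with LPS and with PBS, as were 9 named genes (0.0524%) in all. TYROBP, LYZ and ALOX5AP were at the floor with TNFα, IL1β and PBS and at least 2-fold lower with LPS than with each of them, as were 229 genes (1.33%). TYROBP and ALOX5AP were near background with LPS and at the floor on the other arrays, as were 24 genes (0.140%). FCGR3A, FCGR2A and FCN1 had TNFα at least 2-fold above every other array, as did 47 genes (0.274%), and CSF1R had IL1β so, as did 36 genes (0.210%).

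Genes of like pattern were sought by the Euclidean distance between log2 profiles over the 4 arrays, each centred on its mean, among the genes that reached the floor on at least 1 array (10268 besides the member itself). With 4 values a gene, a small distance describes these arrays only. The nearest gene was another member for PTPRC and FCGR3B, which were nearest to each other (distance 0.81), and for ALOX5AP, nearest to TYROBP (0.57) and then to GMFG (0.58). Likeness among members is in part built in, since they were picked for their differences on these arrays. S100A9, a calcium-binding alarmin of myeloid cells and keratinocytes, was nearest to CYBB (0.46). S100A12 was nearest to FCGR3A (0.81), and S100A8 was second to FCGR3B (1.17). FCGR2A was closest to AQP9 (0.53), a water and glycerol channel, and SLC8A1 (0.55), a sodium-calcium exchanger.

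The dim pattern with LPS had other neighbours. TYROBP was nearest to LSS, lanosterol synthase of the cholesterol pathway (0.18), and to the cardiac troponin TNNT2 (0.38). LYZ was nearest to MYH7, the β heavy chain of cardiac myosin (0.88), which read 4946 with TNFα, 4886 with IL1β, 80.6 with LPS and 3673 with PBS. Outside the dim pattern of TYROBP, LYZ and ALOX5AP, FCN1 was nearest to the signalling adaptor TRAF2 (0.47) and to C11orf42 (0.60). CSF1R, also outside it, was nearest to KIR2DS1 (0.63), a receptor of natural killer cells, and ZNF582 (0.68). Only 1 gene lay within 1 log2 unit of LYZ and 18 did of CSF1R.

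Partner genes of the members were then described from 4 lists of general knowledge, drawn up with earlier results known, 52 genes in all. With TNFα against PBS 4 were higher and 0 lower, with IL1β 3 were higher and 0 lower, and with LPS 0 were higher and 4 lower. Over all named genes the same rule was met for higher and lower by 1.84% and 1.86% with TNFα, 1.72% and 1.96% with IL1β, and 4.97% and 4.18% with LPS, and the counts of the lists that follow stand beside the same shares. The partner medians were 0.22, 0.10 and -0.10.

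Of 18 Fc receptor and ITAM partners 2 were higher with TNFα and 1 with IL1β, and 0 differed with LPS. FCER1A, the ligand-binding chain of the immunoglobulin E receptor, was 2.57-fold higher with TNFα and 2.15-fold higher with IL1β than with PBS. SIRPB1, a receptor that signals through DAP12, was at least 2.56-fold higher with TNFα. FCER1G, the γ chain that FCGR3A uses to signal, read 161 with TNFα, 301 with IL1β, 51.8 with LPS and 152 with PBS. It had the order of arrays of TYROBP, IL1β above TNFα above PBS above LPS, and passed the floor with IL1β only, where it was 1.98 times the PBS value. SYK, the kinase that binds phosphorylated ITAMs, read 1147 with TNFα, 1169 with IL1β, 1155 with LPS and 1666 with PBS, and FGR, a Src family kinase, was near background on all 4 arrays.

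Of 11 genes of the phagocyte oxidase 1 was higher with each cytokine and 2 were lower with LPS. NCF1, the p47phox organiser, read 398 with TNFα, 360 with IL1β, 222 with LPS and 87.4 with PBS, a rise over PBS of at least 3.68-fold with TNFα and 3.32-fold with IL1β, and it has near-identical pseudogenes that can share its signal. Among the genes lower with LPS was the GTPase RAC2, at 2.57-fold below PBS. CYBA, p22phox, the membrane partner of CYBB, did not differ 2-fold from PBS, with 1790 with TNFα, 2381 with IL1β, 3761 with LPS and 2227 with PBS. In leukotriene synthesis 1 of 12 genes was higher with each cytokine, the dipeptidase DPEP2 (2.01-fold with TNFα and 2.10-fold with IL1β), and 2 were lower with LPS, the leukotriene B4 receptors LTB4R (2.08-fold) and LTB4R2 (2.07-fold). These receptor genes overlap, so their values may not be independent. ALOX5, the lipoxygenase that FLAP serves, read 268 with TNFα, 243 with IL1β, 158 with LPS and 158 with PBS. In the CSF1 axis 0 of 11 genes differed in any of the 3 comparisons, and the ligand CSF1 stayed between 606 and 834.

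**Figure D3:**
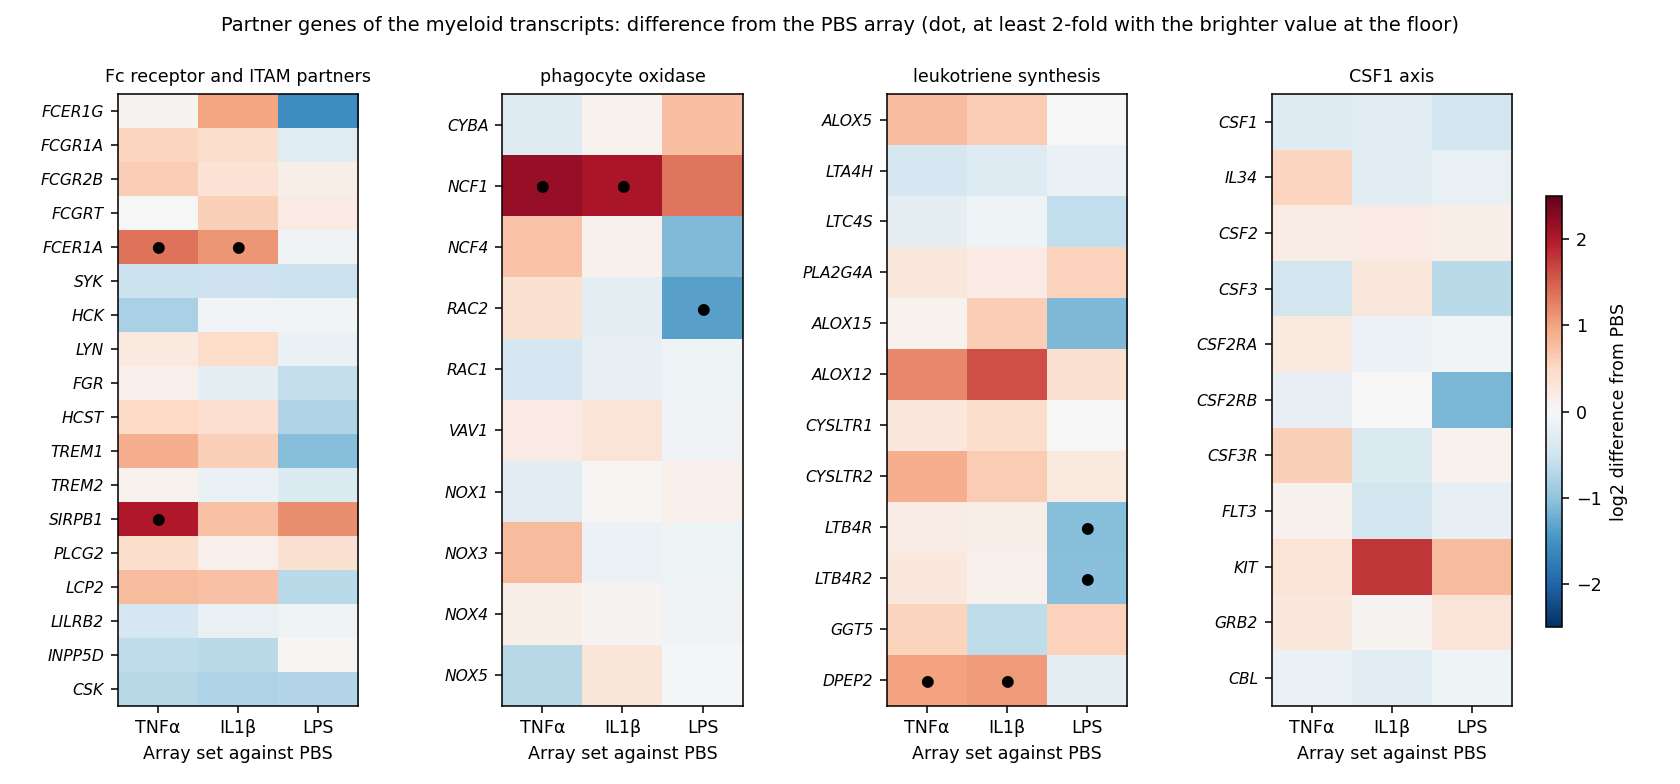
Log2 difference from the PBS array (colour) for partner genes in 4 lists, with TNFα, IL1β and LPS as columns. Dots mark genes at least 2-fold different with the brighter value at the floor: of the genes drawn, 4 with TNFα, 3 with IL1β and 3 with LPS.

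A further 3 lists of myeloid and leukocyte markers without the members, 60 genes in all, were counted in the same way. With TNFα against PBS 13 were higher and 2 lower, with IL1β 11 were higher and 2 lower, and with LPS 3 were higher and 3 lower, the last near the shares of all genes (4.97% higher and 4.18% lower). With the cytokines the shares of all genes were 1.84% (TNFα) and 1.72% (IL1β) for higher. Since these lists were drawn up with earlier results on these data known, nothing is read from the counts beside these shares. The medians of the 60 genes were 0.50, 0.30 and 0.01. Their summed intensity was 37868 with TNFα, 25881 with IL1β, 19057 with LPS and 16632 with PBS. By list, 7 of 21 neutrophil markers were higher with TNFα and 6 with IL1β, and 3 of 19 monocyte and macrophage markers were higher with each. S100A12 counts in both of these lists, and 0 of their genes were lower. Of 21 pan-leukocyte and myeloid transcription genes 4 were higher and 2 lower with TNFα, and 2 higher and 2 lower with IL1β. S100A8, from the neutrophil list, read 5440 with TNFα, 1782 with IL1β, 95.5 with LPS and 58.8 with PBS. S100A9, from the same list and named above as an alarmin of keratinocytes too, read 3983, 2144, 508 and 389 in the same order. Which cells gave the signal of either gene was not tested. S100A8 and S100A9 thus weighed more in the cytokine sums than in those with LPS and PBS. MNDA, a nuclear protein of myeloid cells, read 1519 with TNFα, 879 with IL1β, 243 with LPS and 234 with PBS. EVI2B, a membrane protein of leukocytes, read 2840 with TNFα, 1091 with IL1β, 369 with LPS and 481 with PBS. FCAR, the Fc receptor for immunoglobulin A, was 5.75-fold higher with TNFα and 3.89-fold higher with IL1β.

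Other leukocyte genes had other patterns. ITGB2, the β2 integrin shared by all leukocytes, was 2.43-fold lower with TNFα, 5.46-fold lower with IL1β and 3.32-fold lower with LPS than with PBS. AIF1 and CXCR2 were higher with all 3 stimuli and so were low on the PBS array alone (CXCR2 read 1888 with TNFα, 1778 with IL1β, 1319 with LPS and 258 with PBS). ARHGDIB was 3.72-fold lower with LPS than with PBS, where TYROBP was at least 7.10-fold lower. Of the 60 genes in these marker lists 10 were near background on all 4 arrays. They were VSIG4, CTSS, MPO, MMP9, CEACAM8, CXCR1, ITGAM, CD48, LAPTM5 and CEBPE. So were 7 of the 52 partner genes and 8 of the 33 lymphocyte markers. The share of all named genes near background on all 4 arrays was not counted, so nothing is read from these numbers. CD14, the monocyte co-receptor for LPS, read 90.6 with TNFα, 51.4 with IL1β, 211 with LPS and 164 with PBS, below the floor on all 4 arrays. RNA of another cell type as a source of the members was not tested.

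Lymphocyte markers were counted next. Of 33 genes of T, natural killer, B and plasma cells 1 was higher and 2 lower with TNFα, 1 higher and 1 lower with IL1β, and 1 higher and 4 lower with LPS, where 4.18% of all genes were lower. CD2, CD3E, CD5 and MS4A1 were among 8 near background throughout. Of 10 class II antigen genes 1 was higher with TNFα (HLA-DPB1), and 0 differed with IL1β or LPS. Platelet and erythroid markers had 0 of 15 different with TNFα, 1 higher with IL1β and 4 lower with LPS, among them the globin HBA1, which read 2488 with TNFα, 2074 with IL1β, 324 with LPS and 1824 with PBS.

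The LPS array was also low in genes of an unrelated tissue. Of 18 cardiac muscle markers 8 were lower with LPS than with PBS and 0 higher, with a median of -0.995. Of all genes 4.18% were lower and 4.97% higher. This list was drawn up with earlier results on these data known, so nothing is read from these shares. With TNFα 1 was higher (TNNI3, 2.08-fold) and with IL1β 0 differed. MYH6, which encodes the α myosin heavy chain of heart muscle, read 14709 with TNFα, 17101 with IL1β, 81.3 with LPS and 9470 with PBS, so it was near background with LPS alone. Their summed intensity was 59042 with TNFα, 65673 with IL1β, 17485 with LPS and 44991 with PBS. Fibroblast markers had 1 of 12 lower with LPS, skeletal muscle markers 1 of 11 lower (DES) and testis markers 1 of 11 lower (PRM2). Endothelial markers had 1 of 10 higher and 1 lower, and mast cell and eosinophil markers 1 of 13 higher (HDC). Liver (14), brain (12) and housekeeping genes (14) had 0 different with LPS, and single genes in lists of this size are near the shares of all genes. Of the 20 squamous genes 4 were higher with LPS, among them TP63 and S100A2, and the adhesion protein CDH1 was lower with all 3 stimuli. With the cytokines these lists had at most 3 different genes each: with TNFα 2 skeletal muscle genes and 1 brain gene were higher, and 1 skeletal muscle, endothelial, liver and testis gene each was lower, while with IL1β MYOG and EPX were higher and PRM2 lower. The part that such transcripts or their source play in the members' values was not tested.

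**Figure D4:**
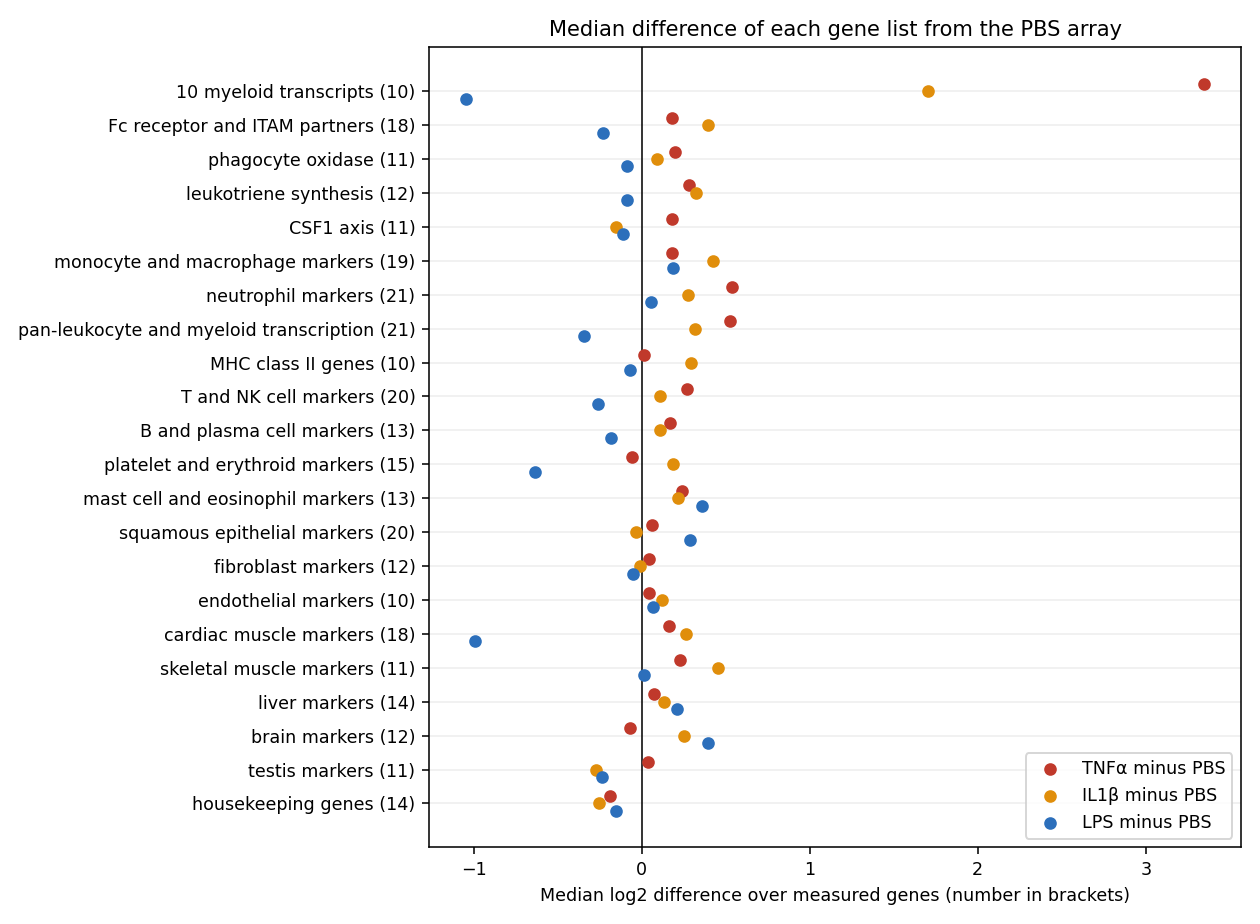
Median log2 difference from the PBS array over the measured genes of each list, with TNFα, IL1β and LPS as coloured points. The 10 myeloid transcripts, picked for their values, stand at 3.35, 1.70 and -1.05. With LPS the cardiac muscle markers, listed with earlier results known, stand at -0.995.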

How the data were processed

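KYSE410 cells were measured on 4 single-colour arrays, 1 for each of TNFα, IL1β, LPS and PBS. Total RNA was copied to cDNA and labelled with Cy3, per the labels' protocols. Per the file headers, the authors deposited 1 RMA intensity for each probe set, not logged. RMA (robust multi-array averaging) usually gives all arrays like distributions, so a change common to most genes would not be seen. Neither software, settings nor build is given in the sources used here. The series table repeats the intensity of all 45033 probe sets.

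Transcript accessions, versions dropped, were looked up in RefSeq's GRCh38.p14 table. Of 45033 probe sets 18863 matched 1 symbol and 26170 did not. Genes with several probe sets were represented by the one of highest mean log2 intensity, and all 17182 genes entered each comparison. Each comparison is a difference of log2 intensity between 2 arrays. With 1 array per condition no test or p-value was possible. The size rule was first run on simulated data with planted changes larger than the threshold. Its simulated spread was smaller than that between these arrays, so it says nothing of the error rate here. The members and the 21 further lists were chosen with earlier results of these data known. Genes were named as follows: all members, any partner gene, each list's brightest gene and up to 3 with the largest differences, and the 2 nearest profiles of each member. The other genes named were chosen after their values were seen, namely CD14, SPI1, MNDA, FCAR, ARHGDIB, CXCR2 and those listed as near background on all 4 arrays. A few genes that the rule names are not reported here. The 9 alternatives were another floor or none, the mean of all probe sets, loess centring (span 0.3), repeated quantile normalization, the series table, an offset of 50.9 before log2, and thresholds of 1.5-fold and 3-fold. Computations ran in Python 3.11.15 with pandas 2.3.3 and numpy 2.4.6, loess came from statsmodels 0.14.6, and plots from matplotlib 3.10.9.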

Additional observations from a re-analysis of the deposited data

How the results depend on the processing

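Counts of members at least 2-fold different stayed within 1.5 times under the alternatives, with 3 exceptions. With the floor at the 75th percentile of gene levels, 2 members in place of 6 differed between IL1β and PBS, and 5 in place of 8 between LPS and IL1β, because CYBB, FCGR3A and CSF1R with IL1β lay below that floor in both comparisons and FCN1 did in the first. With 1.5-fold as the threshold 8 in place of 4 differed between TNFα and IL1β. Of 300 recomputed differences of single members 0 changed sign where they had passed the rule and 273 moved by less than 0.44, the SD over genes of the TNFα minus IL1β difference. The other 27 all arose from the offset, which by its construction shrinks differences of dim genes, as for CYBB with TNFα (2.75 in place of 3.73). No paired analysis was possible because each condition has 1 array. No replicate could be left out for the same reason. Signal over background limits 8 members with LPS and, among them, PTPRC, FCGR3B, FCGR2A and CYBB with PBS as well. Folds against brighter arrays are then bounds. Between LPS and PBS no fold can be given for PTPRC, FCGR3B, FCGR2A and CYBB.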
